A study of Mus musculus with 6 samples.

Results

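Haem breakdown and iron recycling was followed through 10 genes, Hmox1, Blvra, Blvrb, Slc40a1, Slc11a1, Cd163, Hpx, Fth1, Ftl1 and Tfrc, out of 17119 gene symbols counted in mouse liver. Heterozygous livers carried Clec4f-iCre;Cebpbfl/+, in which the recombinase is meant to remove 1 Cebpb allele in Kupffer cells, and wild-type livers were littermates with Clec4f-iCre;Cebpb+/+. Each group had 3 libraries of bulk liver RNA, and all animals, controls included, carried the iCre transgene and were fed HFHCD, rich in fat and cholesterol, over 12 weeks. The Clec4f promoter is meant to confine recombination to Kupffer cells, the resident macrophages of liver, whereas whole liver RNA comes mostly from hepatocytes, which keep both alleles. For replicates 2 and 3 the genotype labels read Clec5f-iCre and Clec6f-iCre, and the design text, which names Clec4f-iCre throughout, was followed. Age and sex were not given in the labels, and nothing in them ties each library to its own animal. The p-values therefore cover only the scatter among these 6 libraries, which may be technical.

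The 10 genes were picked by name for their roles in the pathway. They were chosen with fold changes and adjusted p-values of these same libraries in view, Hmox1 among the genes already known to pass. The difference between heterozygous and wild-type livers is therefore a description of these genes. Its p-value comes from the fit across all genes and only places each gene among them.

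Macrophages take up old red cells and strip haem of its iron. Haem oxygenase opens the haem ring and releases iron, carbon monoxide and biliverdin, which biliverdin reductases turn into bilirubin. The iron is then held in ferritin or leaves through ferroportin, the only known iron exporter of mammalian cells. In liver, Kupffer cells share this work with hepatocytes, which store iron and secrete the plasma proteins that bind free haem and haemoglobin.

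Libraries held 16895322 to 17149924 counts in heterozygous livers and 17665622 to 17750755 in wild-type livers. Levels are given as CPM, the count normalised to the library total and its TMM factor. Fold changes are on the log2 scale, heterozygous over wild-type, each with its SE and 95% confidence interval (CI). The targeted gene, Cebpb, measured 204, 498 and 269 CPM in heterozygous replicates 1, 2 and 3 and 505, 308 and 340.2 CPM in wild-type replicates 1, 2 and 3, so the groups overlapped and it gave no clear check of the labels. Clec4f measured 3.90 to 4.96 CPM in heterozygous livers and 48.5, 38.4 and 5.41 CPM in wild-type replicates 1, 2 and 3. Wild-type replicate 1 stood apart from the other libraries for Hpx, Hp and Lcn2. Of 12706 genes tested with edgeR's quasi-likelihood test, 71 were lower in heterozygous livers at an adjusted p under 0.05 (0.559%) and 3 were higher, which made 74 in all (0.582%). Fold changes were negative for 49.0% of the tested genes.

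Hmox1 RNA was lower in every heterozygous library, while the genes for the next enzymes, for ferritin and for the transferrin receptor stayed within the spread between libraries. Slc11a1 had the same pattern over the 6 libraries as Hmox1 and missed the threshold narrowly. Hpx was high in a single wild-type library. Of the 10 genes, 9 passed the filter on low counts, and 1 of these 9 was past the threshold. The groups did not overlap for 2 of the 9, against 18.4% of all tested genes, a share close to that background.

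**Figure D1:**
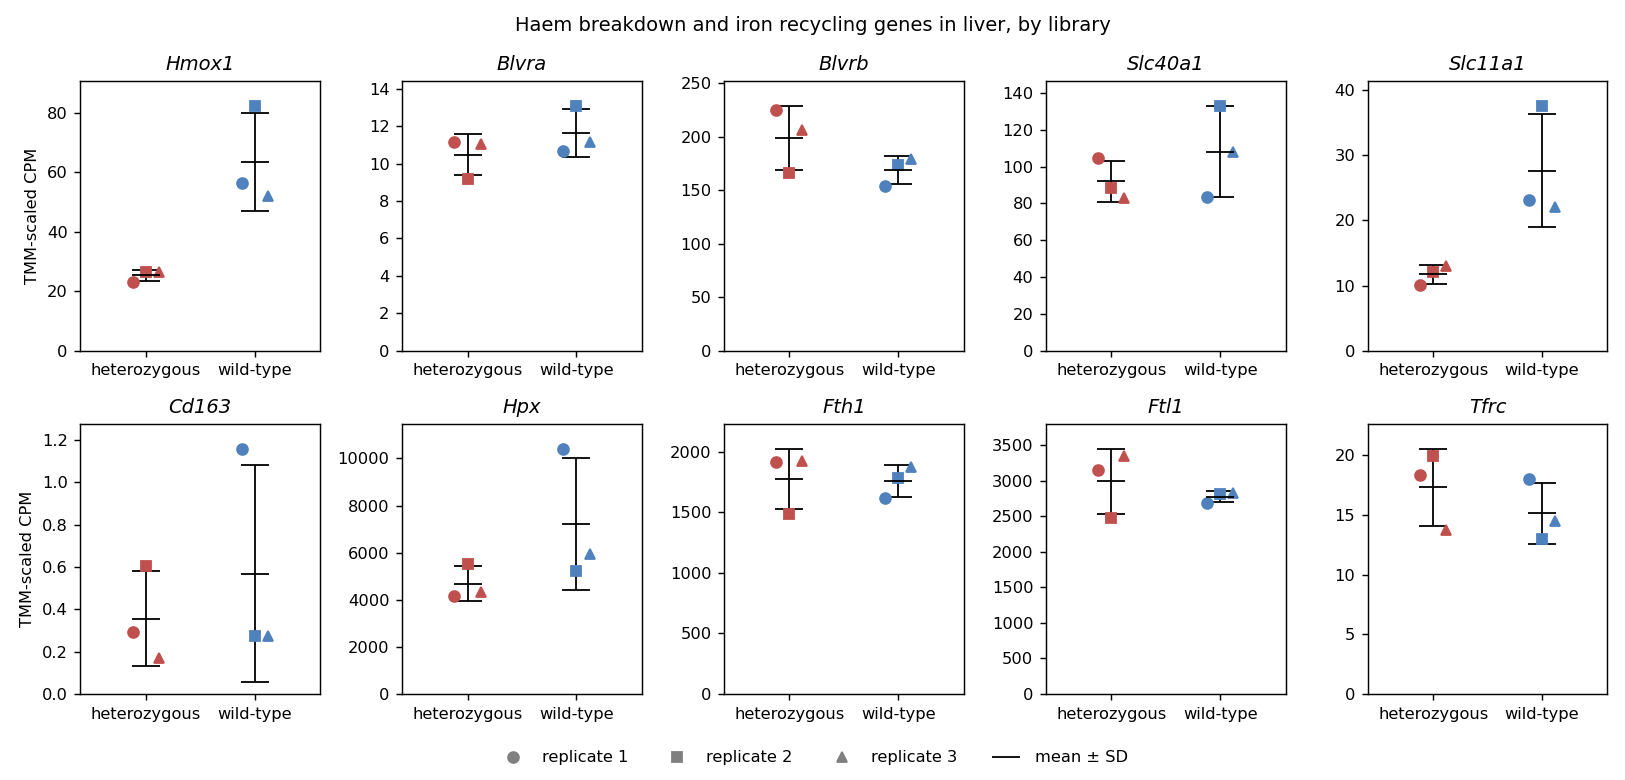
TMM-scaled CPM (vertical axis, from 0, own scale in each panel) of the 10 genes in heterozygous and wild-type livers. Symbols are replicates 1, 2 and 3 and black marks the mean ± SD of 3 libraries. For Hmox1 and Slc11a1 all heterozygous points lie below all wild-type points, and in the other panels the groups overlap.

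The enzymes of haem breakdown were taken in their order of action. Hmox1 encodes haem oxygenase 1, the inducible enzyme that opens the haem ring. It stood at 23.1, 26.3 and 26.5 CPM in heterozygous replicates 1, 2 and 3, against 56.5, 82.5 and 51.9 CPM in wild-type replicates 1, 2 and 3. The highest heterozygous library was thus below the lowest wild-type library, and the heterozygous libraries lay close together while wild-type replicate 2 was well above its group. The means were 25.3 ± 1.92 CPM in heterozygous livers and 63.6 ± 16.5 CPM in wild-type livers (SD, n = 3 each), so Hmox1 was 2.51-fold lower (log2 fold change −1.33 ± 0.18, 95% CI −1.73 to −0.93, edgeR adjusted p = 0.0308). By p-value Hmox1 ranked 17 among the tested genes. The call was lost when wild-type replicate 1 (edgeR adjusted p = 0.0521), heterozygous replicate 1 (0.180) or heterozygous replicate 2 (0.178) was left out. Hmox1 was still past the threshold without wild-type replicate 2 (log2 fold change −1.09, edgeR adjusted p = 0.0468), the library with the highest level. Over all alternatives its adjusted p ran from 1.28e-07 in DESeq2 to 0.180.

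Blvra encodes biliverdin reductase A, which makes bilirubin from biliverdin. It measured 11.2, 9.20 and 11.1 CPM in heterozygous replicates 1, 2 and 3 and 10.7, 13.1 and 11.2 CPM in wild-type replicates 1, 2 and 3. The groups overlapped, and the log2 fold change was −0.15 ± 0.16 (95% CI −0.50 to 0.20, edgeR adjusted p = 0.776). Blvrb encodes biliverdin reductase B, which also reduces flavins. It measured 225, 166 and 206 CPM in heterozygous replicates 1, 2 and 3 and 154, 174 and 179 CPM in wild-type replicates 1, 2 and 3. Heterozygous replicates 1 and 3 were above every wild-type library, but heterozygous replicate 2 lay inside the wild-type range (log2 fold change 0.24 ± 0.14, 95% CI −0.07 to 0.55, edgeR adjusted p = 0.533). The intervals of both reductases lie wholly above that of Hmox1. Within each library, Hmox1 over Blvrb was −3.28, −2.66 and −2.95 log2 units in heterozygous replicates 1, 2 and 3 and −1.45, −1.07 and −1.79 in wild-type replicates 1, 2 and 3. This ratio was lower by 1.53 log2 units in heterozygous livers with no overlap (exact two-sided permutation p = 0.10, the smallest that 3 against 3 allows).

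The iron transporters came next. Slc11a1 encodes NRAMP1, the phagosome transporter that brings recovered iron into the cytosol of macrophages. It measured 10.1, 12.0 and 13.0 CPM in heterozygous replicates 1, 2 and 3, against 23.1, 37.6 and 22.1 CPM in wild-type replicates 1, 2 and 3. As with Hmox1, heterozygous replicate 1 was lowest and wild-type replicate 2 highest, and the groups did not overlap. The means of 11.7 ± 1.44 CPM in heterozygous livers and 27.6 ± 8.69 CPM in wild-type livers (SD, n = 3 each) gave a log2 fold change of −1.24 ± 0.22 (95% CI −1.74 to −0.74), which just missed the threshold (edgeR adjusted p = 0.0519). It passed in DESeq2 (log2 fold change −1.23, adjusted p = 7.00e-05) and in edgeR with no filter on low counts (−1.22, adjusted p = 0.0230), while in the other alternatives its adjusted p lay between 0.0504 and 0.218.

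Slc40a1 encodes ferroportin, through which recovered iron leaves the cell. It measured 105, 88.5 and 83.1 CPM in heterozygous replicates 1, 2 and 3 and 83.6, 133 and 108 CPM in wild-type replicates 1, 2 and 3. Wild-type replicate 1 was level with the lowest heterozygous library and wild-type replicate 2 was the highest of all. The log2 fold change was −0.23 ± 0.17 (95% CI −0.63 to 0.16, edgeR adjusted p = 0.657), and between −0.37 and −0.05 when any single library was left out. Tfrc encodes the transferrin receptor, which brings transferrin-bound iron into cells. It measured 18.3, 19.9 and 13.7 CPM in heterozygous replicates 1, 2 and 3 and 18.0, 13.0 and 14.5 CPM in wild-type replicates 1, 2 and 3. Its highest value was heterozygous and its lowest wild-type, with the others intermixed (log2 fold change 0.19 ± 0.18, 95% CI −0.22 to 0.60, edgeR adjusted p = 0.746).

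Fth1 and Ftl1 encode the heavy and light chains of ferritin, the shell that stores iron. Fth1 measured 1912, 1488 and 1927 CPM in heterozygous replicates 1, 2 and 3 and 1620.0, 1782 and 1877 CPM in wild-type replicates 1, 2 and 3. Ftl1 measured 3155, 2467 and 3339 CPM in heterozygous replicates 1, 2 and 3 and 2686, 2813 and 2819.6 CPM in wild-type replicates 1, 2 and 3. For both chains heterozygous replicate 2 was the lowest library and heterozygous replicate 3 the highest, so the heterozygous values enclosed the wild-type ones. The log2 fold changes were 0.01 ± 0.14 for Fth1 (95% CI −0.31 to 0.33, edgeR adjusted p = 0.989) and 0.11 ± 0.14 for Ftl1 (95% CI −0.21 to 0.43, edgeR adjusted p = 0.837). Fth1 over Ftl1 within a library was −0.72, −0.73 and −0.79 log2 units in heterozygous replicates 1, 2 and 3 and −0.73, −0.66 and −0.59 in wild-type replicates 1, 2 and 3 (difference −0.09, exact two-sided permutation p = 0.30). Both chains have processed pseudogenes, so the reads assigned to them are less certain than those of the other genes.

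Ferritin, ferroportin and the transferrin receptor share a feature in their RNA. It is the iron-responsive element, a hairpin bound by iron regulatory proteins when iron is scarce, which blocks translation from a leader and protects the RNA when it lies in the trailer. Transcripts of GENCODE M21 (GRCm38) were searched on the sense strand for a C, 5 bases, CAGTGN, and 5 bases that pair with the first 5, G-T pairs allowed. Of 21877 protein-coding genes, 294 held a match (1.34%), and 4 of the 10 genes did, namely Fth1, Ftl1, Slc40a1 and Tfrc. The matches are shown 5′ to 3′ as DNA, 29 bases each, with the 6-base loop in capitals, since the other 6 genes, Hmox1, Blvra, Blvrb, Slc11a1, Cd163 and Hpx, had no match:
Fth1, 5′ UTR, chr19:9982732-9982760, plus strand: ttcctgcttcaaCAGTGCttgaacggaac
Ftl1, 5′ UTR, chr7:45459779-45459807, minus strand: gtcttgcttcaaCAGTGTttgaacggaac
Slc40a1, 5′ UTR, chr1:45925465-45925493, minus strand: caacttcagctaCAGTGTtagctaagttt
Tfrc, 3′ UTR, chr16:32631219-32631247, plus strand: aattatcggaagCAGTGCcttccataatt
Tfrc, 3′ UTR, chr16:32631598-32631626, plus strand: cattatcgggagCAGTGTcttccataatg
Tfrc, 3′ UTR, chr16:32631663-32631691, plus strand: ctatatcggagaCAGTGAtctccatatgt
Tfrc, 3′ UTR, chr16:32631710-32631738, plus strand: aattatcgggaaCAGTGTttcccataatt

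Of these genes, Tfrc is the one whose RNA level the hairpins are known to set, through RNA stability, whereas those of the ferritins and of ferroportin act on translation, which was not measured here. The log2 fold changes of the 4 genes with a match ran from −0.23 for Slc40a1 to 0.19 for Tfrc, and 0 of the 4 were past the threshold. Since 0.582% of all tested genes were called, 0 of 4 says little about these genes. Tfrc over Fth1 within a library was −6.70, −6.21 and −7.12 log2 units in heterozygous replicates 1, 2 and 3 and −6.48, −7.09 and −7.01 in wild-type replicates 1, 2 and 3. The 2 groups overlapped widely on this ratio (exact two-sided permutation p = 0.70).

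Scavengers of free haem and haemoglobin made up the last group. Hpx encodes haemopexin, the plasma protein with which hepatocytes bind free haem, and is itself an acute phase gene. It measured 4180.3, 5525 and 4328 CPM in heterozygous replicates 1, 2 and 3, against 10414, 5229 and 5960.3 CPM in wild-type replicates 1, 2 and 3. Wild-type replicate 1 stood far above the rest, and heterozygous replicate 2 was above wild-type replicate 2. The log2 fold change was −0.62 ± 0.26 (95% CI −1.22 to −0.02, edgeR adjusted p = 0.365) and was −0.24 without wild-type replicate 1 (edgeR adjusted p = 0.656; over all alternatives 0.181 to 0.793). Hp, which encodes haptoglobin, the binder of free haemoglobin, had the same order, with 3382, 4800.0 and 3966 CPM in heterozygous replicates 1, 2 and 3 and 9659, 4669 and 5101 CPM in wild-type replicates 1, 2 and 3. Hpx over Hp was therefore even across libraries, at 0.31, 0.20 and 0.13 log2 units in heterozygous replicates 1, 2 and 3 and 0.11, 0.16 and 0.22 in wild-type replicates 1, 2 and 3.

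Cd163 encodes the macrophage receptor that takes up haptoglobin bound to haemoglobin. It had 5, 10 and 3 counts in heterozygous replicates 1, 2 and 3 and 19, 5 and 5 counts in wild-type replicates 1, 2 and 3. These counts lay under the abundance filter, so Cd163 was not tested, and no difference was detectable at this depth.

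**Figure D2:**
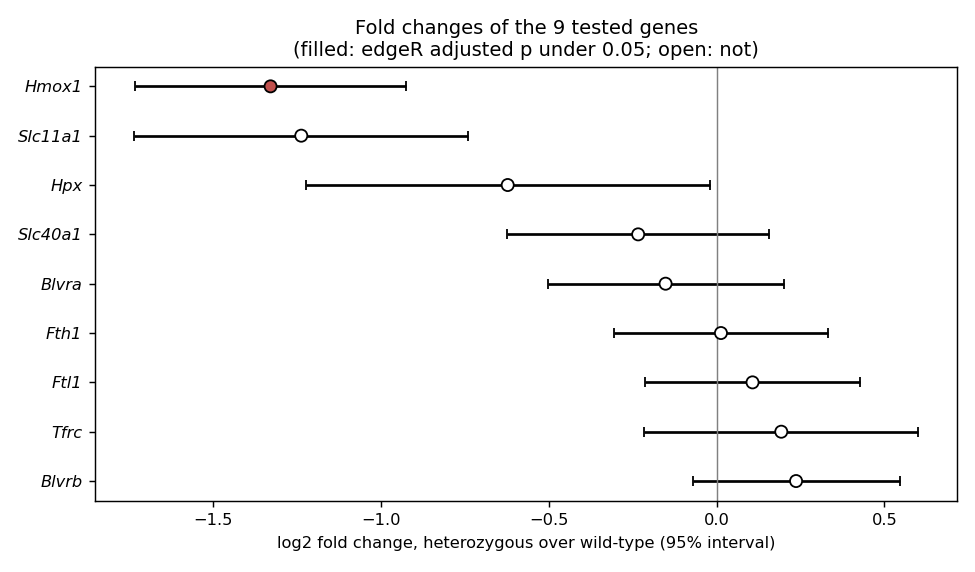
Log2 fold change of heterozygous over wild-type livers (horizontal axis) with its 95% CI for the 9 tested genes. The filled point, Hmox1 at −1.33, has an edgeR adjusted p under 0.05, and open points do not. The intervals of Hmox1, Slc11a1 and Hpx lie below 0 and the others include it.

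Markers of macrophages moved together with Hmox1 and Slc11a1. In bulk tissue, fewer macrophages and less RNA per macrophage cannot be told apart. Of 12 macrophage markers, all tested, 6 fell and 11 had groups that did not overlap, with a median log2 fold change of −1.19 against 0.00 over all tested genes. Over all tested genes, 0.559% were called lower and 18.4% had groups that did not overlap. The marker with overlapping groups was Mrc1 (log2 fold change −0.10). The summed level of the 12 markers was 362 to 440.5 CPM in heterozygous livers and 746 to 1266 CPM in wild-type livers. Wild-type replicate 2 was the highest, as it was for Hmox1. Those that fell were Laptm5 (log2 fold change −1.20), C1qb (−1.19), Lyz2 (−1.68), Fcgr1 (−1.39), Cd68 (−1.04) and C1qa (−1.06). Without heterozygous replicate 1, 0 genes of any kind passed, and likewise without heterozygous replicate 2 (edgeR; 1104 and 1601 genes at an unadjusted p under 0.05). The part of these markers in the values of Hmox1 and Slc11a1 was not tested.

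The 8 Kupffer cell markers centred on −0.90 in log2 fold change (median), 6 negative and 2 positive, and 1 of them, Il18bp, fell. Their summed level was 351 to 572 CPM in heterozygous livers and 467 to 749.6 CPM in wild-type livers, so the groups overlapped on it. Most of that sum came from 1 gene, C6, at 242 to 425 CPM in heterozygous livers and 254 to 420.2 CPM in wild-type livers. The mean log2 CPM of the list, in which each gene weighs the same, was 3.47 to 3.99 in heterozygous livers and 3.998 to 5.16 in wild-type livers, with no overlap but a narrow gap. Cd5l, Marco and Vsig4 had log2 fold changes of −1.22, −2.98 and −0.58, and the positive Folr2 and C6 of 0.41 and 0.10, and none of these 5 passed. The 6 monocyte markers had a median of −1.23, and 1 of them, the chemokine receptor gene Ccr2, fell, while Plac8 (−1.13), Chil3 (−2.89) and Cx3cr1 (−1.33) did not pass. Their summed level was 14.0 to 20.5 CPM in heterozygous livers and 34.6 to 40.8 CPM in wild-type livers. Chil3 rested on few counts, with 0 to 4 in heterozygous and 15 to 28 in wild-type libraries.

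Then 8 of the tested genes were set against the mean log2 CPM of the 12 macrophage markers in the same library, whereas Hpx was set against Hp only. Hmox1 stood at 0.32, 0.36 and 0.31 log2 units above that mean in heterozygous replicates 1, 2 and 3 and at 0.62, 0.49 and 0.37 in wild-type replicates 1, 2 and 3. The difference was −0.16, where the log2 fold change in CPM was −1.33, and the groups did not overlap but lay close together. The part of macrophage content in either value was not tested. Slc11a1 stood at −0.86, −0.76 and −0.72 in heterozygous replicates 1, 2 and 3 and at −0.67, −0.64 and −0.85 in wild-type replicates 1, 2 and 3, a difference of −0.06 with overlap. Slc40a1 stood higher relative to these markers in heterozygous livers, at 2.49, 2.11 and 1.95 log2 units in replicates 1, 2 and 3, against 1.18, 1.18 and 1.43 in wild-type replicates 1, 2 and 3, a difference of 0.92.

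Blvra, Blvrb, Fth1, Ftl1 and Tfrc were higher relative to the macrophage markers by 0.99, 1.36, 1.14, 1.23 and 1.32 log2 units, also with no overlap. The marker mean itself was 4.22 to 4.43 log2 CPM in heterozygous livers and 5.21 to 5.88 in wild-type livers. A gene with an even level, such as Fth1 (log2 fold change 0.01), therefore comes out higher on this ratio, which does not show a rise in its RNA. Hepatocytes and other liver cells express several of the genes compared, so the ratio does not measure their level in macrophages. In all, 12 ratios were compared and 8 reached the smallest exact two-sided permutation p of 0.10, which is 0.15 after Benjamini-Hochberg adjustment, so this design could call none. With Kupffer cell markers in place of macrophage markers the difference for Hmox1 was −0.33 and that for Slc11a1 −0.22, both with overlapping groups (exact permutation p = 0.30 and 0.60). For Slc40a1, Blvra, Blvrb, Fth1 and Ftl1 it was 0.76, 0.82, 1.20, 0.98 and 1.07, now also with overlapping groups (exact permutation p = 0.20 each). Only Tfrc, at 1.16, still had no overlap (exact permutation p = 0.10).

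**Figure D3:**
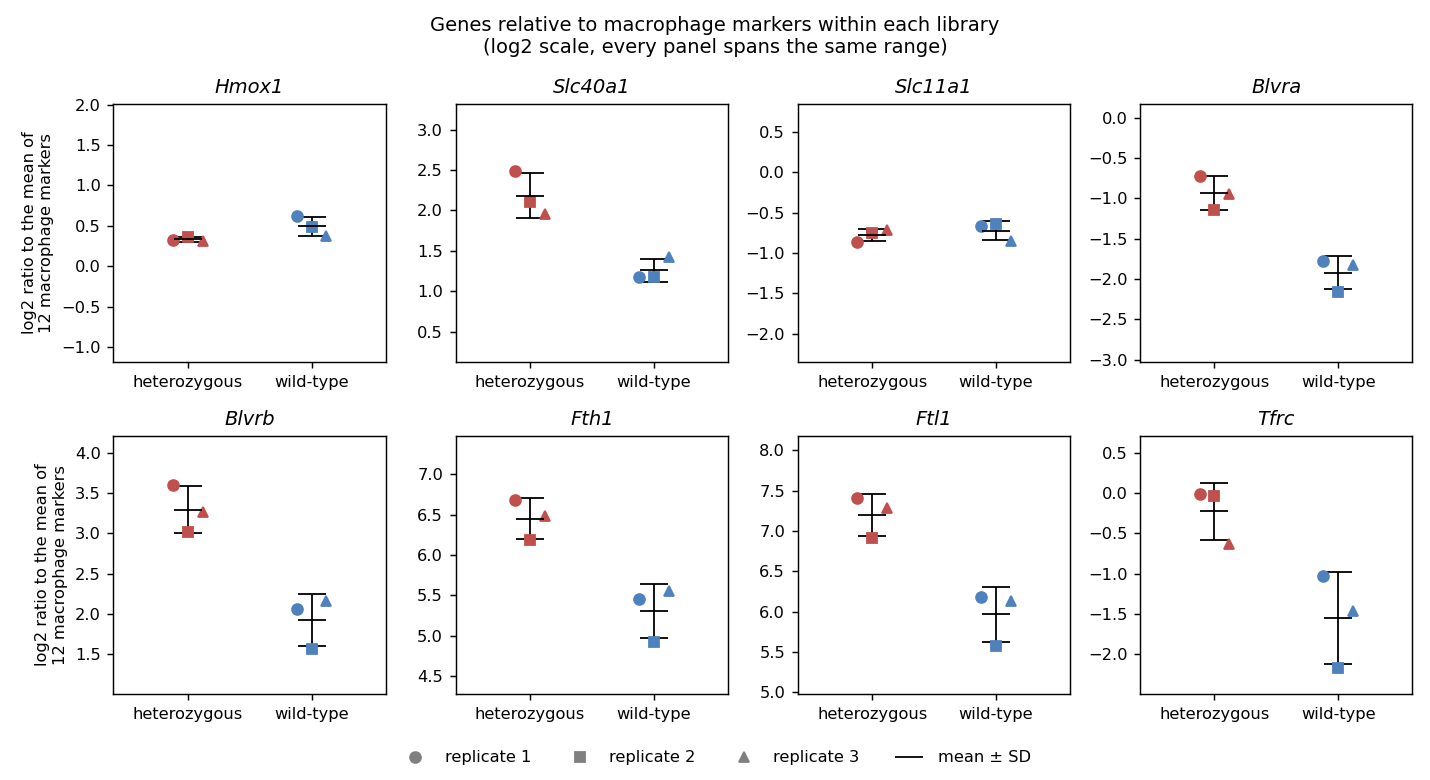
Log2 ratio of each gene to the mean of 12 macrophage markers within a library (vertical axis; every panel spans the same range), in heterozygous and wild-type livers. Symbols are replicates and black marks the mean ± SD of 3 libraries. The ratios of Hmox1 and Slc11a1 differ by −0.16 and −0.06, and those of the other 6 genes are higher in heterozygous livers by 0.92 to 1.36. The marker mean itself is lower in heterozygous livers.

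The genes most like Hmox1 over the 6 libraries were sought by the root-mean-square difference of mean-centred log2 CPM, where 0 is an identical pattern and the SD of Hmox1 itself is 0.75. The closest outside the 10 genes were Il18bp, which encodes a secreted inhibitor of interleukin 18 (0.06), C1qb, a chain of complement C1q (0.12), Fcgr4, an Fc receptor gene (0.12), Clec4a3, a C-type lectin gene (0.12), and Cfp, which encodes the complement protein properdin (0.12). Il18bp is itself 1 of the Kupffer cell markers and C1qb 1 of the macrophage markers. Among the 10 genes, Slc11a1 was closest at 0.08, and the other tested genes lay between 0.58 and 0.83. Il18bp measured 18.3, 20.04 and 21.4 CPM in heterozygous replicates 1, 2 and 3 and 42.7, 58.3 and 39.3 CPM in wild-type replicates 1, 2 and 3.

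Other genes of haem and iron handling were read from the same fit, by lists of known function, and 0 of them passed the threshold (edgeR; the members with the smallest p are named). Over all tested genes 0.582% were called, a share at which lists of this size hold few calls or none. Over all tested genes, 49.0% of fold changes were negative, so the sign counts of these and the following short lists are a description only. Of 11 haem synthesis genes, 9 had a positive and 2 a negative fold change (median 0.11). Alad, Ppox and Urod, which encode enzymes of the pathway, had log2 fold changes of 0.32, 0.23 and 0.18, and Alad measured 176, 161 and 178 CPM in heterozygous replicates 1, 2 and 3 against 134, 139 and 139 CPM in wild-type replicates 1, 2 and 3 (edgeR adjusted p = 0.187). The largest change of the list was negative, for Alas1, with overlapping groups (log2 fold change −0.78 ± 0.63, edgeR adjusted p = 0.719). Of 11 genes of haem and haemoglobin transport, 6 were positive and 5 negative (median 0.04), among them the exporter gene Abcg2 (0.40), Hp (−0.68), the haemopexin receptor gene Lrp1 (−0.29) and Slc46a1 (0.15). Of 21 genes of iron transport and storage, 8 were positive and 13 negative (median −0.07).

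In that last list Slc39a8, a metal importer gene (0.46), Slc25a37, which encodes a mitochondrial iron importer (0.45), and Slc11a2, the paralogue of Slc11a1 known as DMT1 (0.24), were positive. Lcn2, which encodes the siderophore binder lipocalin 2, measured 18.8, 52.2 and 17.4 CPM in heterozygous replicates 1, 2 and 3 and 498, 63.1 and 57.2 CPM in wild-type replicates 1, 2 and 3. Wild-type replicate 1 was far above the rest, and the log2 fold change was −2.81 ± 1.15 (edgeR adjusted p = 0.417). Of 12 genes of hepcidin control, the hormone system that closes ferroportin, 8 were positive and 4 negative (median 0.09). Hamp, the hepcidin gene, measured 716, 631 and 621 CPM in heterozygous replicates 1, 2 and 3 and 1147, 517 and 717 CPM in wild-type replicates 1, 2 and 3, with overlap. Bmp2, an endothelial signal for hepcidin production in hepatocytes, measured 14.1, 19.6 and 12.3 CPM in heterozygous replicates 1, 2 and 3 and 7.01, 5.98 and 8.91 CPM in wild-type replicates 1, 2 and 3. The groups did not overlap, yet it missed the threshold (log2 fold change 1.07 ± 0.22, edgeR adjusted p = 0.0639). Bmp6, which encodes a related signal, Atoh8, a transcription factor gene, and Hjv, the haemojuvelin gene, had values of 0.60, 0.36 and 0.18.

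Regulators known to act on Hmox1 and on iron genes of macrophages formed a list of 12, of which 3 were positive and 9 negative (median −0.06). Spic, the gene of a transcription factor on which iron-recycling macrophages depend, measured 0.757, 0.182 and 1.32 CPM in heterozygous replicates 1, 2 and 3 and 2.56, 6.91 and 2.57 CPM in wild-type replicates 1, 2 and 3. The groups did not overlap, but counts were low (log2 fold change −2.40 ± 0.65, edgeR adjusted p = 0.152). Nfe2l2, the gene of NRF2, which activates Hmox1, had a log2 fold change of 0.24, Mafk, a partner of NRF2, of −0.30, and Nr1d1, a clock repressor gene, of −0.94.

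Hmox1 is also a target of NRF2. Of 13 further targets listed, 12 were tested, 10 of them positive and 2 negative (median 0.07). Gclc, a subunit of the enzyme that makes the precursor of glutathione, had a log2 fold change of 0.93 ± 0.22 (edgeR adjusted p = 0.106), measuring 695, 473 and 495 CPM in heterozygous replicates 1, 2 and 3 and 209, 316 and 349.6 CPM in wild-type replicates 1, 2 and 3. Gclm (0.33) and Gsr (0.14) were positive too, and G6pdx, of the pentose phosphate pathway, had a log2 fold change of −1.08 ± 0.21 (edgeR adjusted p = 0.0561). Of 7 genes of bilirubin and biliverdin handling, 6 were positive and 1 negative (median 0.27, but 0.11 without wild-type replicate 1 and 0.54 without wild-type replicate 2), among them the canalicular exporter gene Abcc2 (0.48), Slco1a1 (0.52), Abcc4 (0.36) and Slco1b2 (0.27).

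**Figure D4:**
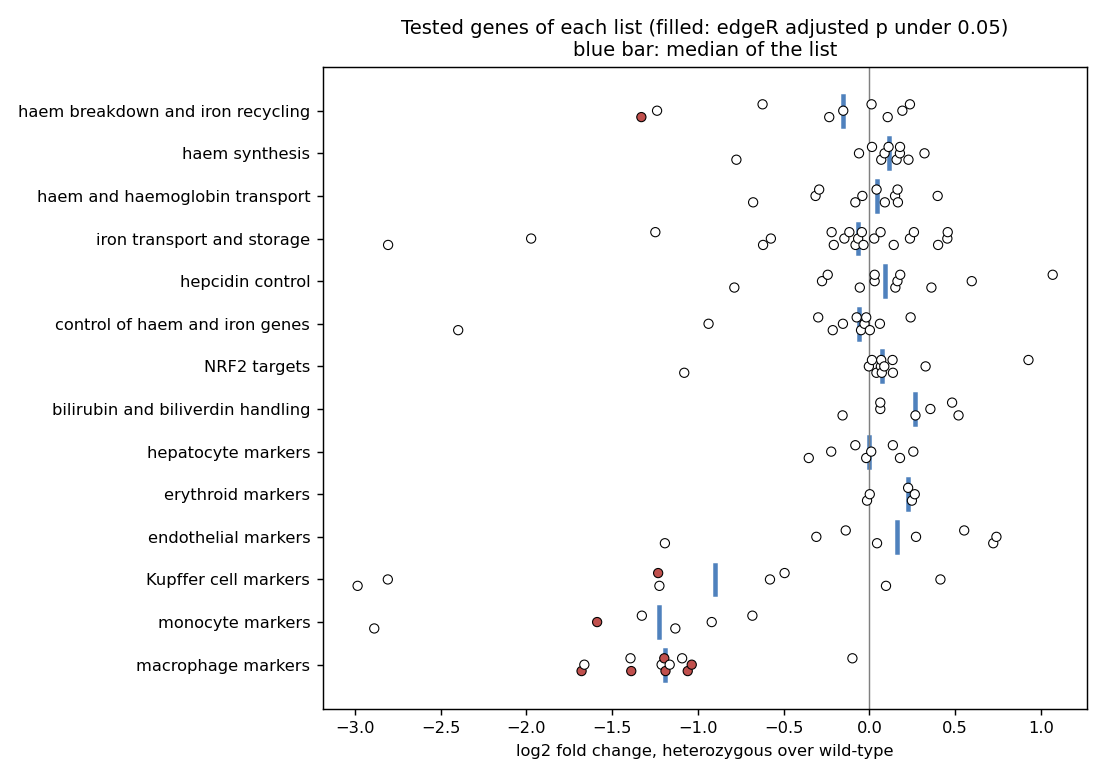
Log2 fold change of heterozygous over wild-type livers (horizontal axis) for each tested gene, by list; blue bars are list medians and filled points have an edgeR adjusted p under 0.05. The haem and iron lists centre near 0 with Hmox1 filled, whereas macrophage and monocyte markers have medians of −1.19 and −1.23.

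Markers of the remaining cell types were read beside these values, and 0 of them passed (edgeR). Over all tested genes 0.582% were called and 49.0% of fold changes were negative. Of 9 erythroid markers 5 were tested, 4 of them positive and 1 negative (median 0.23, but −0.17 without wild-type replicate 3, −0.11 without heterozygous replicate 1 and 0.49 without wild-type replicate 1), and their summed level was 174 to 294 CPM in heterozygous livers and 159.9 to 236 CPM in wild-type livers. Most of that sum came from 1 gene, Alas2, at 133 to 185 CPM in heterozygous livers and 115 to 134 CPM in wild-type livers. Alas2 (0.27), Hba-a2 (0.25), Hbb-bs (0.23) and Hba-a1 (−0.01) overlapped between groups, the near-identical Hba-a1 and Hba-a2 being uncertain. The 4 haemoglobin genes, Hbb-bt included, were each lowest in replicate 3 of both groups. Hbb-bs measured 60.0, 55.3 and 14.5 CPM in heterozygous replicates 1, 2 and 3. In wild-type replicates 1, 2 and 3 it measured 48.5, 47.9 and 14.5 CPM. The cause of this shared drop was not tested. Epb42 had no count in any library, and Slc4a1 and Ahsp were too low to be tested. Of 8 hepatocyte markers, 4 were positive and 4 negative (median near 0), with log2 fold changes of 0.26 for Ttr, −0.22 for Cps1, 0.18 for Serpina1c and 0.14 for Alb. The sign of this median flipped between scalings, and it was 0.19 without wild-type replicate 1 and −0.062 without wild-type replicate 3. The labelled tissue carried its defining marker, since Alb stood at 72575 to 95156 CPM in heterozygous livers and 66206 to 92021 CPM in wild-type livers. Of 8 endothelial markers, 5 were positive and 3 negative (median 0.16), with Tek at 0.74, Clec4g at 0.55, Kdr at 0.72 and Pecam1 at −0.31. The part of these cell types in the values of the 10 genes was not tested.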

How the data were processed

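RNA of 6 liver samples, 3 per group, was isolated with TRIzol and 500 ng went into stranded mRNA libraries, per the labels' protocols. Trimmomatic 0.36, HISAT2 2.2.1.0 and HTSeq 0.9.1 are named with build GRCm39, per the submitters' processing notes, and neither the annotation nor the strand setting of the counter is given in the sources used here. What the authors deposited is a table of raw read counts, a row per gene symbol and a column per sample, and each column was used. No 2 libraries agreed within sampling noise (chi-square per degree of freedom from 23.3 to 113.9).

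Low-count genes were removed by filterByExpr in edgeR 4.0.16 (R 4.3.3), library sizes were adjusted by TMM, and the groups were compared by a robust glmQLFit with glmQLFTest and no covariates, with Benjamini-Hochberg adjustment over all tested genes and a threshold of 0.05. No batch, date or litter is given in the labels. TMM factors ran from 0.924 to 1.04. SEs are the absolute log2 fold change over the square root of F. Ratios used log2 CPM with a prior count of 2 and an exact permutation test, and Cd163 over macrophage markers was not computed because Cd163 was not tested. Alternatives were other scalings and filters, DESeq2 1.42.0, limma-voom (limma 3.58.1), a non-robust fit, the replicate number as a block, haemoglobin or the top 10 genes left out, and libraries left out. The 10 genes, all lists, tests and alternatives were chosen with earlier results of these data known. Named genes were the 10, per list the members past the threshold and the up to 4 with the smallest p, and the 5 genes most like Hmox1 among those whose log2 CPM averaged 1 or more. Single values of some list members are not reported here. Hamp, C6, Folr2 and other values outside this rule were chosen after they were seen.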

Additional observations from a re-analysis of the deposited data

How the results depend on the processing

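The log2 fold change of Hmox1 was negative in all 17 alternatives and past the threshold in 12 of them. It was lost with the replicate number as a block (−1.30, edgeR adjusted p = 0.177), without wild-type 1 and heterozygous 2 together (−1.42, edgeR adjusted p = 0.118), and in 3 of the 6 fits without a single library, which ran from −1.46 to −1.09. The 10 genes gave 2 calls with no filter on low counts and 2 in DESeq2, the second being Slc11a1 in both. They gave 0 with the block (edgeR; 2 at an unadjusted p under 0.05) and 0 without both libraries (edgeR; 4 at an unadjusted p under 0.05), and between 0 and 1 without a single library. Over all genes the number past the threshold was 37 with upper-quartile scaling, 211 with no filter, 48 with at least 1 CPM in 3 libraries, 534 in DESeq2, 46 in limma-voom, 20 in a non-robust fit, 4 without both libraries, 0 with the block (edgeR; 1427 at an unadjusted p under 0.05), and between 0 and 122 without a single library. The cause of these changes was not tested.

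The replicate numbers were not treated as pairs: deviations of same-numbered libraries correlated at −0.21, −0.31 and 0.19, and 2 of 6 libraries correlated best with their own number. Haemoglobin genes, however, were lowest in replicate 3 of both groups. Several values changed sign without a single library. The log2 fold change of Fth1 ran from −0.048 to 0.13, and the difference in log2 ratio from −0.0012 to 0.089 for Hpx over Hp and from −0.051 to 0.40 for Tfrc over Fth1. List medians ran from −0.11 to 0.034 for iron transport and storage, from −0.21 to 0.047 for control genes and from −0.17 to 0.49 for erythroid markers. For hepatocyte markers the median ran from −0.062 to 0.19. Other medians kept their sign but moved by over 1.5 times, running from 0.0044 to 0.076 for haem and haemoglobin transport, from 0.075 to 0.17 for hepcidin control, from 0.062 to 0.19 for NRF2 targets, from 0.11 to 0.54 for bilirubin and biliverdin handling and from 0.018 to 0.28 for endothelial markers. Depth limits Cd163, Spic and Chil3, and may limit other genes with low counts.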
